A study of Homo sapiens with 4 samples.

Results

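The RFX family here is 7 genes, RFX1, RFX2, RFX3, RFX5, RFX7, RFXAP and RFXANK, taken by symbol from a table of raw counts with 56303 features. All 7 had a row, and all 7 had at least 10 counts in each of the 4 libraries, so the whole family was among the 19210 features compared (those with at least 10 counts in at least 2 libraries). The study sequenced RNA from Huh7, an established line of human liver cancer cells, before and after immunoprecipitation (IP) with an antibody to RBM39, an RNA-binding splicing factor. Its 4 libraries were the IP and the input of cells transfected with a short-hairpin plasmid against RBM39 (shRBM39), and the IP and the input of cells with a control hairpin (shControl), with 1 library per group. The labels do not say whether either culture was a clone or a pool, and none of the libraries was an IP with a control antibody, so a level above input cannot be told apart from background recovery on the beads or antibody.

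Of these, RFX1, RFX2, RFX3, RFX5 and RFX7 are winged-helix transcription factors that bind the X-box, a DNA element with inverted half-sites. RFXAP and RFXANK are not of this kind and are counted here as subunits that join RFX5. RFX1, RFX2 and RFX3 can bind as dimers and are known for controlling genes of cilia. RFX5 binds with RFXAP and RFXANK as the complex that switches on MHC class II promoters, and loss of any of these subunits causes bare lymphocyte syndrome. RFX7 is known in human cells for activating growth-restraining genes downstream of p53. The series title names RFX1 as a transcript whose splicing RBM39 regulates, so the comparisons ask whether RFX transcripts were recovered with the antibody and whether they differed with the hairpin. Counts per gene hold no information on exon use, and splicing was not analysed here.

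The 7 genes lie on 5 chromosomes of GRCh38, and RFX1, RFX2 and RFXANK share chromosome 19. RFX1 spans 13961530 to 14006816 on the minus strand. RFX2 spans 5993164 to 6110500, and RFXANK spans 19192258 to 19201866 on the plus strand. RFX3 is on chromosome 9 (3218297 to 3526001, minus strand), RFX5 on chromosome 1 (151340640 to 151347252, minus strand), RFX7 on chromosome 15 (56087280 to 56245082, minus strand) and RFXAP on chromosome 13 (36819222 to 36829104, plus strand).

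Because RFX proteins can regulate RFX genes, the start regions of the members were searched for the half-site GTTGCC and for CCAAT, the letters that NF-Y, a partner of the RFX complex, binds, on both strands and from 250 bases before to 30 bases after each RefSeq start. Of the 7 members, 6 had such a window in the RefSeq table (GRCh38.p14), with 12 windows among them. The half-site letters stood in 2 of the 12 windows (16.7%), 1 of RFX1 and 1 of RFX7, and CCAAT in 4 of the 12 (33.3%). Of all 35116 windows of this length, 11.4% hold the half-site and 33.6% hold CCAAT, so the members' CCAAT share is close to that of all windows, and a match is a description of the letters only. The windows of the 2 members with a half-site are shown because RFX1 is the gene of the title and RFX7 the other holder. They lie at chr19:14006291-14006570 and chr15:56245053-56245332, both on the minus strand, and capitals mark the half-site and CCAAT on either strand.
RFX1: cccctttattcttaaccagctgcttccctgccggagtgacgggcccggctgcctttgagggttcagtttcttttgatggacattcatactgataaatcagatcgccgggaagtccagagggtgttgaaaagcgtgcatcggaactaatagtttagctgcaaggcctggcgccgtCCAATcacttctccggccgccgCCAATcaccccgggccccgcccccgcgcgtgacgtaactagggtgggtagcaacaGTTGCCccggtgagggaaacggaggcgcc
RFX7: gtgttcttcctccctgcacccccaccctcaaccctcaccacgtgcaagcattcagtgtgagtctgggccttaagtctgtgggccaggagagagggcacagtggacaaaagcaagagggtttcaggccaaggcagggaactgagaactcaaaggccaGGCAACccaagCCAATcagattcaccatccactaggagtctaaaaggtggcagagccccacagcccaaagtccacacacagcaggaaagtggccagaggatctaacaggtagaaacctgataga

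The libraries held between 20858382 and 45812488 counts, with both IPs deeper than both inputs. RBM39, the target of the hairpin, stood at 370 CPM (counts scaled to a common library size with TMM factors) in the input labelled shRBM39, against 403 CPM in the shControl input, which is 0.917 times (log2 -0.13, 95% counting interval -0.17 to -0.08). In the IPs it stood the other way, at 2219 CPM in shRBM39 cells and 1035 CPM in shControl cells, 2.14 times (log2 1.10, 1.08 to 1.12), so that IP over input was 5.999 times in shRBM39 cells and 2.57 times in shControl cells. Group names below are those of the labels. All 9 hepatocyte and hepatoma markers were compared, with 1139 to 98952 counts per library, and markers of other cell types were mixed. Of 6 leukocyte markers 2 were compared, LYZ with 5947 to 12830 counts and CD68 with 304 to 419, while PTPRC, CD3E and MS4A1 had 0 to 12. Of 3 endothelial markers, PECAM1 had 130 to 203 counts, and VWF and CDH5 had 0 to 12. Of 4 fibroblast markers, PDGFRB had 30 to 100 counts, COL3A1 12 to 56, LUM 0 to 6 and DCN 0 in every library. The median log2 ratio of shRBM39 over shControl of the hepatocyte markers was -0.05 in the inputs and -0.88 in the IPs, and the part of this shift in the members' IP values was not tested. With 1 library per group, pairwise differences have no replicate check and no p-value; intervals are 95% intervals of counting error only. Between 71.4% and 75.6% of counts from 3 to 6 were even numbers in each library; with all counts divided by 2, in case both mates of a pair were counted, 5 of the 35 member intervals changed, and each of those held 0 where it had excluded it. A feature is called higher or lower when it differs by at least 2-fold and its interval excludes equality. In bulk RNA, fewer cells with a transcript and fewer copies per cell cannot be told apart.

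The 3 paralogs known for ciliary genes differed in recovery: RFX1 was above its input in both IPs, RFX3 below, and RFX2 near it. RFX1 had 317 IP counts and 55 input counts in shRBM39 cells, and 319 IP counts and 70 input counts in shControl cells. In CPM these were 7.65 in the IP and 2.53 in the input of shRBM39 cells, and 7.05 in the IP and 3.25 in the input of shControl cells. Both IPs lay above both inputs, and the IPs of the cultures lay closer to each other than the inputs did. RFX1 was 3.01 times its input level in the IP of shRBM39 cells (log2 1.59, 1.18 to 2.04) and 2.16 times in shControl cells (log2 1.11, 0.74 to 1.51). It was called higher in both. Its ratio exceeded that of 98.0% of compared features in shRBM39 cells and of 93.7% in shControl cells.

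RFX3, which in mice is needed for nodal cilia and for the maturation of pancreatic islets, stood the other way. It had 285 IP counts and 195 input counts in shRBM39 cells, and 331 IP counts and 308 input counts in shControl cells. The scaled levels were 6.88 CPM in the IP and 8.96 CPM in the input of shRBM39 cells, and 7.32 CPM in the IP and 14.3 CPM in the input of shControl cells. Both IPs lay below both inputs. The log2 ratio of IP over input was -0.38 (-0.65 to -0.11) in shRBM39 cells and -0.96 (-1.19 to -0.74) in shControl cells, neither of which reached 2-fold. In shRBM39 cells the interval held 0 once counts were divided by 2.

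RFX2, a factor of multiciliated cells and spermatids, was near its input level in both cultures. It had 154 IP counts and 67 input counts in shRBM39 cells, and 264 IP counts and 133 input counts in shControl cells. The log2 ratios of IP over input were 0.27 (-0.15 to 0.71) in shRBM39 cells and -0.08 (-0.39 to 0.23) in shControl cells, so no difference from input was detectable at this depth. RFX2 separated by culture instead, at 3.72 CPM (IP) and 3.08 CPM (input) in shRBM39 cells, against 5.84 CPM (IP) and 6.17 CPM (input) in shControl cells.

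Of the subunits of the MHC class II complex, RFXANK was above input in both IPs, RFX5 slightly above, and RFXAP below input in shRBM39 cells. RFXANK, the ankyrin-repeat subunit, had 1063 IP counts and 349 input counts in shRBM39 cells, and 1075 IP counts and 346 input counts in shControl cells. That is 25.7 CPM in the IP and 16.0 CPM in the input of shRBM39 cells, and 23.8 CPM in the IP and 16.0 CPM in the input of shControl cells. Both IPs lay above both inputs, by 1.599 times in shRBM39 cells (log2 0.68, 0.50 to 0.86) and 1.48 times in shControl cells (log2 0.57, 0.39 to 0.75).

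RFX5, the DNA-binding subunit, had 2182 IP counts and 888 input counts in shRBM39 cells, and 2354 IP counts and 1038 input counts in shControl cells. Its log2 ratio of IP over input was 0.37 (0.26 to 0.48) in shRBM39 cells and 0.11 (0.01 to 0.22) in shControl cells. Both values are small beside those of RFX1 and RFXANK, and the interval in shControl cells held 0 once counts were divided by 2.

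RFXAP, the acidic accessory subunit, had 144 IP counts and 114 input counts in shRBM39 cells, and 200 IP counts and 94 input counts in shControl cells. It lay below input in shRBM39 cells (log2 -0.59, -0.96 to -0.22) and at input level in shControl cells (log2 0.02, -0.34 to 0.39). This was the lowest ratio of the family in shRBM39 cells.

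RFX7 had the most counts of the family, with 2654 IP counts and 1528 input counts in shRBM39 cells, and 2667 IP counts and 1671 input counts in shControl cells. Its scaled levels were 64.1 CPM in the IP and 70.2 CPM in the input of shRBM39 cells, and 59.0 CPM in the IP and 77.5 CPM in the input of shControl cells. Both IPs lay below both inputs, with log2 ratios of -0.13 (-0.22 to -0.04) in shRBM39 cells and -0.39 (-0.48 to -0.30) in shControl cells. Counts are not divided by transcript length here, so the order of the genes by CPM is not an order of transcript numbers.

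**Figure D1:**
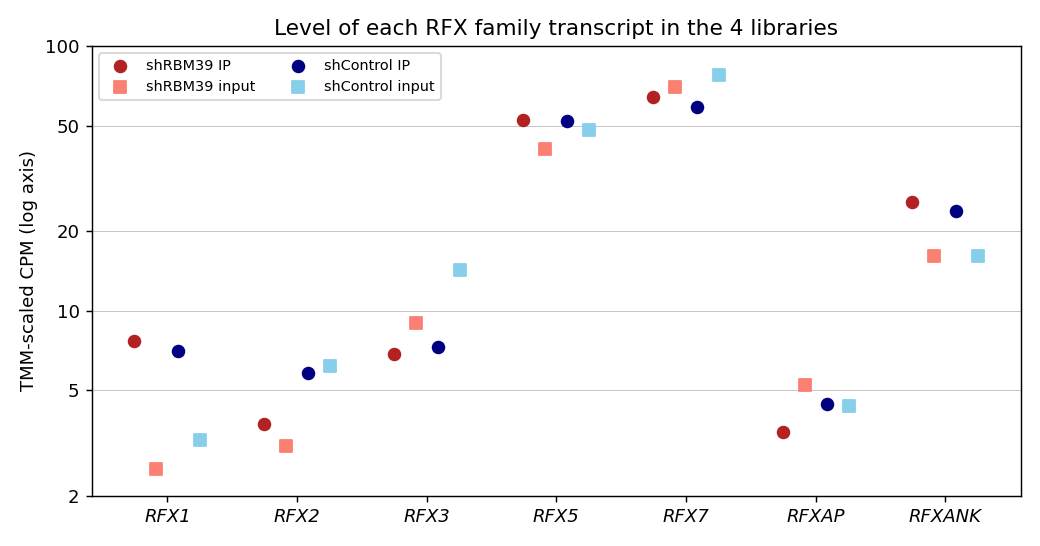
TMM-scaled CPM (log axis) of the 7 RFX family genes in the shRBM39 IP, shRBM39 input, shControl IP and shControl input, 1 point per library. RFX1 and RFXANK have both IPs above both inputs, RFX3 and RFX7 have both IPs below both inputs, and RFX2 is lower in both shRBM39 libraries.

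In the pairwise comparison of IP with input, 1 of 7 members was called higher in shRBM39 cells, where 5.29% of all compared features were, and 0 were called lower, where 9.00% were. In shControl cells 1 of 7 was higher, against 7.70% of all features, and 0 were lower, against 11.3%. The called member was RFX1 both times. The median log2 ratio of the 7 genes was 0.27 in shRBM39 cells and 0.02 in shControl cells, and that of all compared features was 0.02 in shRBM39 cells and -0.01 in shControl cells. In shRBM39 cells the order of recovery was RFX1, RFXANK, RFX5, RFX2, RFX7, RFX3 and RFXAP, and the intervals of RFX1 and RFXANK and those of RFXANK and RFX5 did not overlap, while all other neighbours in the order did. In shControl cells the order was RFX1, RFXANK, RFX5, RFXAP, RFX2, RFX7 and RFX3, and the neighbours without overlap were RFXANK and RFX5, and RFX7 and RFX3.

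**Figure D2:**
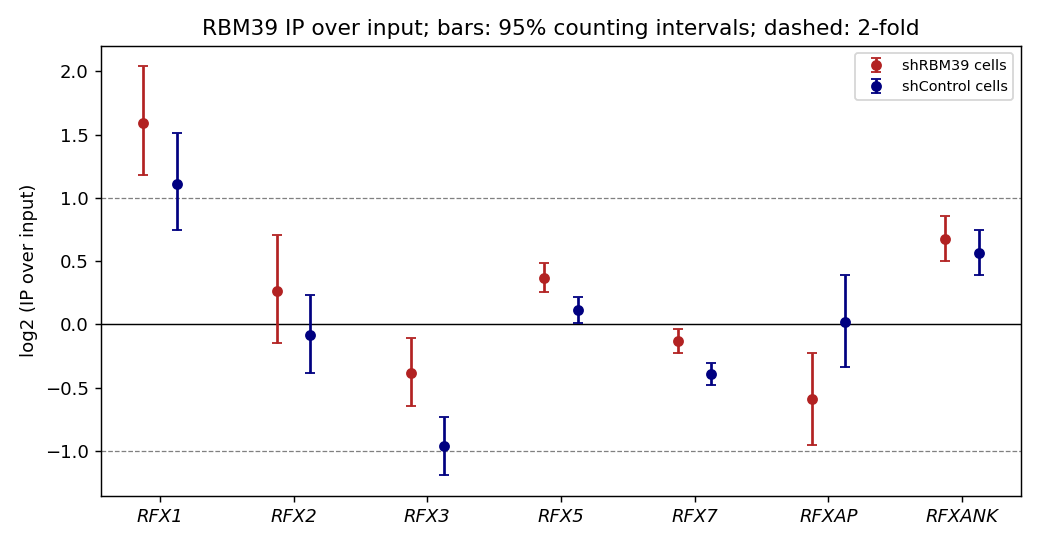
Log2 ratio of RBM39 IP over input for each gene in shRBM39 cells and in shControl cells, with 95% counting intervals as bars, and 2-fold marked by dashed lines. The ratio of RFX1 lies above 2-fold in both cultures (1.59 and 1.11), and that of RFX3 below 0 in both (-0.38 and -0.96). The interval of RFX1 in shControl cells (0.74 to 1.51) crosses the 2-fold line.

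Taking the cultures as a pair of IP and input measurements, edgeR's quasi-likelihood test with a culture term gave an adjusted p across all features for each member. RFX1 was higher in IP, with a log2 ratio of 1.35 ± 0.23 (SE, adjusted p = 0.000169), and RFXANK was higher, with 0.62 ± 0.16 (adjusted p = 0.00381). Each SE was computed from the log2 ratio and the F statistic of this test, so it is not a separate measure of spread. RFX3 was lower, with -0.68 ± 0.20 (adjusted p = 0.00962). Those 3 genes had the same direction in 2 of 2 cultures, as did RFX5 and RFX7. The other 4 did not pass, namely RFX5 (0.24, adjusted p = 0.213), RFX7 (-0.26, 0.181), RFXAP (-0.28, 0.381) and RFX2 (0.08, 0.81). So 2 of 7 members were higher, where 19.3% of all features were, and 1 of 7 was lower, where 17.6% were. The model has 1 residual degree of freedom. The cultures differ in hairpin, so they are not replicates of 1 condition, and a true difference between them counts as error. The SE and adjusted p therefore do not measure replicate spread within either culture. With DESeq2 the adjusted p of RFX3 was 0.0672, and without the culture term it was 0.116 for RFX1, 0.183 for RFXANK and 0.245 for RFX3, and no feature of the table passed.

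Ratios between members within a library need no scaling of library sizes, and transcript length cancels when IP and input are compared. RFX1 counts were 1.11 times RFX3 counts in IP and 0.282 times in input of shRBM39 cells, and 0.964 times in IP and 0.227 times in input of shControl cells. The log2 change of this ratio with IP was 1.98 (1.49 to 2.47) in shRBM39 cells and 2.08 (1.65 to 2.52) in shControl cells. RFX1 against RFX2 shifted by 1.33 (0.74 to 1.91) in shRBM39 cells and 1.20 (0.72 to 1.68) in shControl cells. Within the MHC class II complex, RFXANK against RFX5 shifted by 0.31 (0.10 to 0.52) in shRBM39 cells and 0.45 (0.25 to 0.66) in shControl cells. RFXAP against RFX5 shifted by -0.96 (-1.33 to -0.59) in shRBM39 cells, against -0.09 (-0.46 to 0.28) in shControl cells.

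The make-up of the family shifted accordingly. RFX1 made up 4.66% of the 6799 family counts in the shRBM39 IP (exact 95% binomial interval 4.17% to 5.19%) and 1.72% of 3196 in the shRBM39 input (1.3% to 2.23%). In shControl cells it made up 4.42% of 7210 in the IP (3.96% to 4.92%) and 1.91% of 3660 in the input (1.49% to 2.41%). RFX7 made up 39.0% in the IP and 47.8% in the input of shRBM39 cells, and 37.0% in the IP and 45.7% in the input of shControl cells. RFXANK made up 15.6% in the IP and 10.9% in the input of shRBM39 cells, and 14.9% in the IP and 9.45% in the input of shControl cells. RFX5 made up 32.1% in the IP and 27.8% in the input of shRBM39 cells, and 32.6% in the IP and 28.4% in the input of shControl cells. For RFX3 these shares were 4.19% and 6.10% in shRBM39 cells, and 4.59% and 8.42% in shControl cells. The shares of RFX7 and RFX3 were thus smaller, and those of RFX1, RFXANK and RFX5 larger, in both IPs. RFX2 differed little. RFXAP made up 2.12% in the IP and 3.57% in the input of shRBM39 cells. In shControl cells RFXAP differed little, with 2.77% in the IP and 2.57% in the input.

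**Figure D3:**
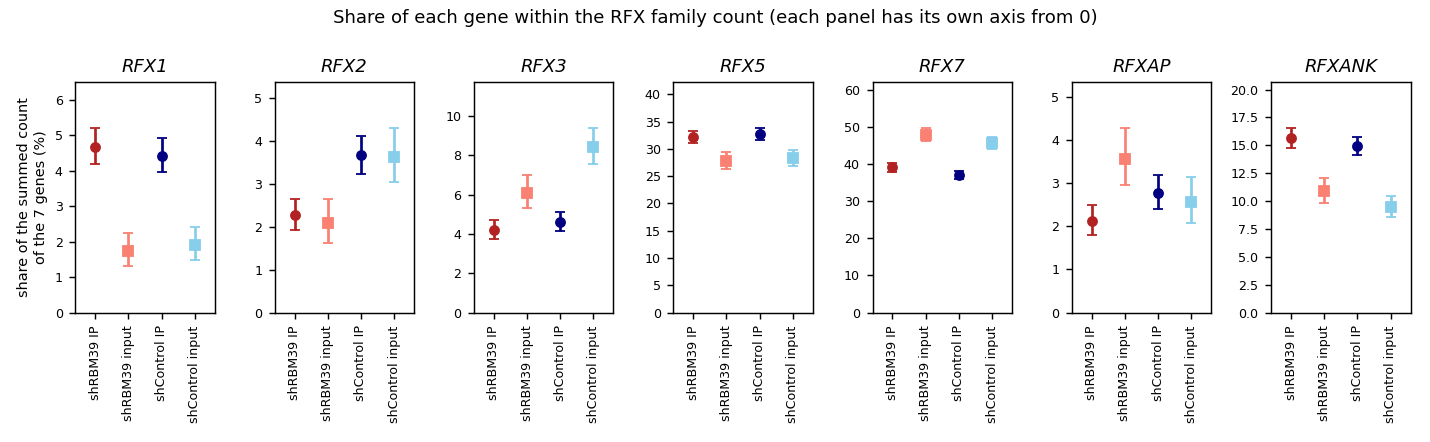
Share (%) of each gene in the summed count of the 7 genes in each library, with exact 95% binomial intervals as bars; each panel has its own axis starting at 0. RFX1 stands at 4.66% and 4.42% in the IPs, against 1.72% and 1.91% in the inputs, in shRBM39 and shControl cells in that order.

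Between the inputs, shRBM39 over shControl, 0 of 7 members were called higher, where 5.10% of all features were, and 0 were called lower, where 5.74% were. RFX2 was closest to the threshold, at 0.501 times its shControl level (log2 -0.997, -1.45 to -0.57). It was past the threshold with libraries scaled to total counts (-1.08) and with DESeq2 size factors (-1.005). RFX3 stood at 0.628 times (log2 -0.67, -0.94 to -0.41), RFX5 at 0.848 times (log2 -0.24, -0.37 to -0.11) and RFX7 at 0.906 times (log2 -0.14, -0.24 to -0.04, an interval that held 0 once counts were divided by 2). For RFX1 (-0.36, -0.90 to 0.17), RFXANK (-0.001, -0.22 to 0.22) and RFXAP (0.26, -0.14 to 0.67) the interval held 0. The family's median was -0.24, and that of all features -0.01.

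In the IPs, 0 members were called in either direction when shRBM39 was set against shControl, where 6.61% of all features were higher and 5.27% lower. RFX2 was again the lowest, with a log2 ratio of -0.65 (-0.95 to -0.36). RFXAP stood at -0.35 (-0.67 to -0.03), with an interval that held 0 once counts were divided by 2. RFX1 (0.12, -0.11 to 0.35), RFXANK (0.11, -0.01 to 0.23), RFX7 (0.12, 0.04 to 0.20) and RFX5 (0.02, -0.07 to 0.10) stood slightly above 0. With libraries scaled to total counts they stood below it, at -0.16, -0.16, -0.15 and -0.26 in that order, where the median of all features moved by -0.27. With that scaling, 729 of all features were called higher and 1911 lower, beside 1269 higher and 1012 lower with TMM.

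The difference of the IP-over-input ratios, shRBM39 minus shControl, was called higher or lower for 0 of 7 members, where 4.39% and 2.74% of all features were. It was 0.58 for RFX3 (0.24 to 0.93), 0.26 for RFX7 (0.14 to 0.39) and 0.26 for RFX5 (0.10 to 0.41), with a family median of 0.26 beside a median of -0.00 over all features. For RFX1 it was 0.48 (-0.08 to 1.03), for RFX2 0.35 (-0.16 to 0.86) and for RFXANK 0.11 (-0.14 to 0.36), all with intervals that held 0. With libraries scaled to total counts, which moved the median of all features by -0.19, RFX7 stood at 0.07, RFX5 at 0.06 and RFXANK at -0.08. With TMM, RFXAP alone lay below 0, at -0.61 (-1.11 to -0.11), and its interval held 0 once counts were divided by 2. These differences are made of the same 4 libraries as the input and IP comparisons above: for RFX3 the inputs differed by -0.67 and the IPs by -0.09 (-0.32 to 0.14).

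**Figure D4:**
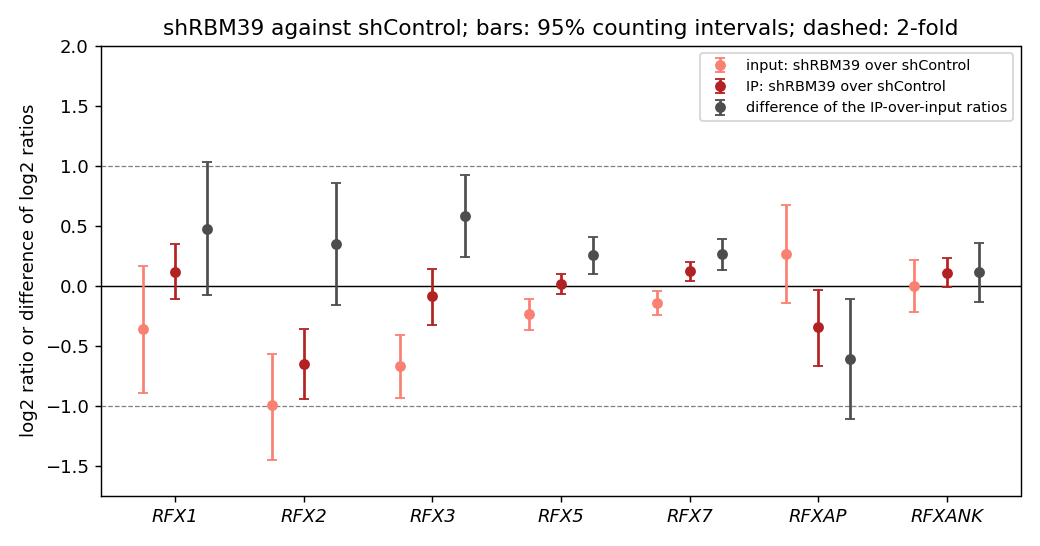
For each gene, the log2 ratio of shRBM39 over shControl in the inputs and in the IPs, and the difference of the IP-over-input ratios (shRBM39 minus shControl), with 95% counting intervals as bars. RFX2 has the lowest input value (-0.997), RFX3 the highest difference (0.58) and RFXAP the only difference below 0 (-0.61).

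Some members touch other genes in RefSeq, and the strand setting of the counting is not given in the sources used here, so shared reads cannot be told apart. DCAF15, which encodes the ubiquitin ligase receptor through which indisulam degrades RBM39, ends 80 bases from the end of RFX1 on the opposite strand. It had 692 IP counts and 206 input counts in shRBM39 cells, and 458 IP counts and 127 input counts in shControl cells. DCAF15 had a log2 IP-over-input ratio of 0.82 in shRBM39 cells and 0.78 in shControl cells, and shRBM39 over shControl in input was 0.68 (0.36 to 1.01), against -0.36 for RFX1. TEX9 overlaps RFX7 by 1110 bases, with 104 to 127 counts per library. NR2C2AP overlaps RFXANK by 458 bases, and its log2 IP-over-input ratio was -0.02 in shRBM39 cells and 0.67 in shControl cells, where RFXANK had 0.68 and 0.57. BORCS8 and the readthrough BORCS8-MEF2B lie 105 bases from RFXANK. BORCS8 had log2 IP-over-input ratios of 0.22 in shRBM39 cells and 0.24 in shControl cells, and BORCS8-MEF2B had 0.38 in shRBM39 cells and 0.54 in shControl cells. The other annotated neighbours matched no row of the table by symbol.

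Over the 4 libraries, the features nearest to RFX1 in pattern, by distance of centred log2 CPM among 14482 others with at least 200 summed counts, were FCHSD1, an F-BAR and SH3 domain protein (distance 0.09), the clone-named RP11-155O18.6 (0.11), SNAPC2, a subunit of the complex that drives small nuclear RNA promoters (0.11), RP11-529H20.3 (0.16) and ZNRF1, a ubiquitin ligase (0.17). FCHSD1 had log2 IP-over-input ratios of 1.53 in shRBM39 cells and 0.99 in shControl cells. Among the members, RFXANK was nearest to RFX1 (0.75), with 1222 features closer, and RFX3 farthest (2.01), with 12094 closer. As a description of the whole table, 946 coding genes of chromosome 19 had a median log2 IP-over-input ratio of 0.38 in shRBM39 cells and 0.37 in shControl cells, beside 0.07 and 0.08 over 12886 coding genes. Coding genes spanning at least 100 kb had medians of -0.13 in shRBM39 cells and -0.15 in shControl cells. Both groupings were chosen after the data were seen. RFX1 and RFXANK are on chromosome 19. RFX3 spans 308 kb and RFX7 spans 158 kb, and both lay below input in both cultures. RFX2, on chromosome 19 and spanning 117 kb, belongs to both groupings and lay near 0. The part of location or gene span in the members' ratios was not tested.

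The remaining RFX genes were close to absent. RFX4, a brain and testis factor, had 0 counts in both shRBM39 libraries, which allows up to 0.0724 CPM in IP and 0.138 CPM in input (3 counts each), against 10 IP counts and 0 input counts in shControl cells, which allows up to 0.139 CPM in input. RFX8 had 1 count in the shRBM39 IP. RFX6, a factor of pancreatic endocrine cells, had 8 IP counts and 16 input counts in shRBM39 cells, and 20 IP counts and 11 input counts in shControl cells.

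Partners and reported targets of the family were counted from fixed lists by the same rules. Of the partners of the MHC class II complex, 5 of 5 were compared and 0 were called in any pairwise comparison. In the edgeR test over both cultures, NFYC was higher in IP (log2 0.57, adjusted p = 0.00557), CREB1 was lower (-0.79, adjusted p = 0.000303), and NFYA, NFYB and the coactivator CIITA did not pass, beside 19.3% of all features higher and 17.6% lower. CIITA had 304 IP counts and 111 input counts in shRBM39 cells, and 333 IP counts and 116 input counts in shControl cells. Few class II genes had counts: of 12 class II and invariant chain genes, 3 could be compared, and HLA-DRA, HLA-DRB1 and HLA-DQA1 had 0 counts in every library. HLA-DMB had 42 counts in the shRBM39 input and 14 in the shControl input (log2 1.54, 0.67 to 2.56). It was the 1 of 3 called higher between the inputs, beside 5.10% of all features, on low counts, where CD74 and HLA-DMA were not called, and none of the 3 passed the edgeR test of IP over input.

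MHC class I genes carry a related promoter module. The 7 genes compared in this list include NLRC5, which is a regulator and not a class I gene. Of the 7, 3 were lower in the shRBM39 input (HLA-B, log2 -1.21, HLA-C, -1.11, and HLA-F, -1.70), against 5.74% of all features. The 1 called higher, against 5.10% of all features, was NLRC5, on 10 counts in the shRBM39 input and 2 in the shControl input. HLA-C had 366 IP counts and 264 input counts in shRBM39 cells, and 1070 IP counts and 566 input counts in shControl cells. Class I genes are near-identical in places, so the split of reads among them is uncertain. The list's median was -0.71 in the inputs, beside -0.01 for all features. In IP over input by edgeR, B2M, the light chain, was lower (log2 -0.72, adjusted p = 0.00108) and the other 6 did not pass.

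Of 29 ciliary genes, 25 were compared, with 1 called higher and 1 called lower between the inputs, a share near the 5.10% and 5.74% of all features. The lower one was FOXJ1, the master factor of motile cilia, with 24 input counts in shRBM39 cells and 67 in shControl cells, and 88 IP counts in shRBM39 cells and 284 in shControl cells. That is a log2 ratio of -1.48 (-2.23 to -0.80) between the inputs, beside -0.997 for RFX2 and -0.67 for RFX3. The higher one was the dynein DNAH5, on 30 counts in the shRBM39 input and 8 in the shControl input. The list's median was -0.01, equal to that of all features, and the transport genes IFT88 (0.50) and BBS2 (0.68) stood above 0. In the edgeR test of IP over input 6 of the 25 rose, among them MKS1 of the ciliary transition zone (log2 1.15, adjusted p = 9.67e-05) and IFT140 (0.91, adjusted p = 0.000369), and 4 fell, among them IFT20 (-1.19, adjusted p = 1.09e-05) and RPGRIP1L (-0.98, adjusted p = 0.00277). Of all features, 19.3% were higher and 17.6% lower, near the shares of this list.

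Of 17 genes reported as RFX7 targets in human cells, all were compared and 0 were called between the inputs, with a median of 0.02. The values farthest from 0 were -0.94 for PIK3IP1, an inhibitor of PI3 kinase, 0.89 for the deubiquitinase OTUD5, 0.85 for PDCD4, a translation inhibitor, and -0.78 for DDIT4, an inhibitor of mTORC1. In IP over input by edgeR, 6 rose, including OTUD5 (log2 0.87, adjusted p = 0.000262), and SESN3 fell (-1.05, adjusted p = 2.5e-05), beside 19.3% of all features higher and 17.6% lower. Of 11 reported targets of RFX1 or RFX5 outside these groups, 8 were compared, and 2 were higher in the shRBM39 input, beside 5.10% of all features: CD44, a hyaluronan receptor (212 counts in the shRBM39 input and 97 in the shControl input, log2 1.11, 0.76 to 1.48), and TGFB2, a growth factor (292 and 143 counts in the same order, log2 1.01, 0.72 to 1.32). COL1A2, a collagen chain that RFX1 and RFX5 are known to repress, had 512 counts in the shRBM39 input and 650 in the shControl input, a log2 ratio of -0.36. ITGAL, an integrin chain of leukocytes, was not called between the inputs (0.62, 0.35 to 0.90). In IP over input by edgeR, ITGAL (log2 0.92, adjusted p = 0.000256) and PCNA (0.78, adjusted p = 0.000998) were higher, and CD44, COL1A2 and TGFB2 were lower, so 2 of 8 were higher, beside 19.3% of all features, and 3 of 8 lower, beside 17.6%.

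**Figure D5:**
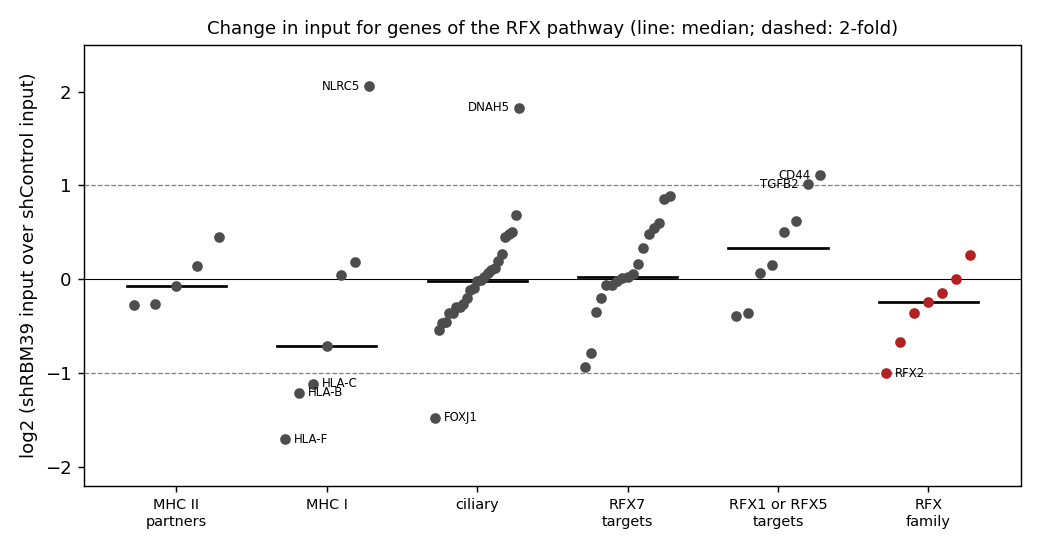
Log2 ratio of shRBM39 input over shControl input for the compared genes of 5 lists (partners of the MHC class II complex, MHC class I, ciliary, reported RFX7 targets, reported RFX1 or RFX5 targets) and for the 7 RFX genes; lines mark medians and dashed lines 2-fold. Genes at about 2-fold or more are named, and the median is lowest for the MHC class I list (-0.71), which includes the regulator NLRC5.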

How the data were processed

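RNA from RBM39 immunoprecipitates and inputs of shRBM39 and shControl Huh7 cells was sequenced, 4 libraries with 1 per group. The authors deposited raw counts per gene as whole numbers. The submitters' processing notes name cutadapt 1.9, HISAT2 2.0.4, StringTie 1.3.4d and hg38; the sources used here give no role for each, and name no counting program, strand setting or annotation. No column belonged to another sample.

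Compared features reached 10 counts in 2 or more libraries, with TMM library sizes and 0.5 added to each count. Pairwise ratios have exact (Clopper-Pearson) 95% counting intervals (scipy 1.17.1) and no test. Intervals of the difference of IP-over-input ratios, and of the shifts of ratios between members, are normal approximations from the counting standard error. IP over input in both cultures was tested with edgeR 4.0.16 (R 4.3.3), quasi-likelihood, with culture and fraction as terms, Benjamini-Hochberg adjusted at 0.05 over all features; DESeq2 1.42.0 was an alternative. Scripts were tested on simulated data. Other alternatives were total-count and DESeq2 scaling, TMM without mitochondrial, 7SK and 7SL features, no filter, 1 added to each count, counts divided by 2, and a 1.5-fold threshold.

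The members and gene lists were chosen with earlier results of these data known. The text names every member, RBM39, neighbours within 5 kb that have counts, the 5 features nearest to RFX1, all genes of lists of 5 or fewer, and up to 4 per list with the largest ratios and at least 200 summed counts; other list genes that passed a threshold (such as HLA-F, NLRC5, DNAH5 and HLA-DMB), B2M, IFT88 and further genes named for contrast were chosen after their values were seen. Promoter windows and coordinates are from RefSeq, GRCh38.p14. A listed marker is not reported here.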

Additional observations from a re-analysis of the deposited data

Results flagged for a closer look

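The log2 ratio of IP over input of RFX2 was above 0 in shRBM39 cells (0.27) and below 0 in shControl cells (-0.0817). That of RFXAP was below 0 in shRBM39 cells (-0.59) and above 0 in shControl cells (0.0171). Each stands out because the cultures lay on opposite sides of 0, with 1 library per group, and the difference was not tested. For RFX2 the intervals of both cultures held 0, and without the filter on low counts its shControl value was 0.009, above 0. For RFXAP the interval of shControl cells held 0.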

How the results depend on the processing

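The labels carry no replicate numbers. IP and input were paired by culture in the edgeR test, and its values without that pairing are given below. With 1 library per group, no library could be left out. No result reversed among called values. At a 1.5-fold threshold, IP over input gave 2 members higher and 1 lower in shRBM39 cells (all features 2977 and 3350) and 1 lower in shControl cells (3630 and 3953). In shRBM39 over shControl it gave 2 lower in the inputs (all features 2440 higher and 2295 lower), 1 lower in the IPs (2707 and 2362), and 1 lower in the difference of ratios (1527 and 1312). RFX2 was called lower between the inputs with total-count scaling and with DESeq2 size factors, so that 1 member was lower in each. Total-count scaling gave 729 features higher and 1911 lower between the IPs, and 887 lower in the difference. Without a filter, 1624 features were higher in the shRBM39 IP. Counts divided by 2 left 687 features lower between the inputs, and 486 higher and 258 lower in the difference. With DESeq2, 0 members and 2097 features were lower in IP over both cultures (4695 features called in all, 6496 at an unadjusted p under 0.05). Without the culture term, edgeR called 0 members and 0 features in either direction (4143 at an unadjusted p under 0.05), against 3698 higher and 3381 lower with it. The cause of these shifts was not tested. Depth limits RFX1, RFX2 and RFXAP most, whose inputs held 55 to 133 counts.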
